A study of Mus musculus with 3 samples.

Results

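The complement genes described here encode the chains of C1q (C1qa, C1qb, C1qc), the components C4b and C3, the receptors C3ar1 and C5ar1, and the inhibitors Serping1 and Cd59a. These 9 genes, of 32285 in the deposited count tables, were listed by name for their roles, with no threshold on a measured value. Single-cell RNA libraries came from wild-type (WT) mice of strain C57BL6/J, 10 to 12 weeks old and male by the descriptions of the study. The control library came from naive mice, a group the study calls both naive and Sham, and the other libraries came from mice taken 24 h or 3 d after a transient ischemic attack (TIA), induced by 5 min of middle cerebral artery occlusion and labelled as stroke by the submitters. Each library was 1 pool of 3 mice, so differences between mice were not measured. The hemisphere (after TIA that on the occluded side) was dissociated with papain after white matter and meninges had been taken away. The study also calls the tissue cortical. Dead cells were depleted and sorted out by propidium iodide. These steps can set the share of oligodendrocytes, fibroblasts and other classes.

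The control, 24 h and 3 d libraries held 4804, 1619 and 5505 cells, with 37987228, 12919691 and 48636436 unique molecular identifiers (UMIs, each standing for a captured RNA molecule). Cells with at least 500 genes and at most 7% mitochondrial UMIs were kept, which left 4018, 1225 and 4781 cells with medians of 7750, 8123 and 7868 UMIs. Control and 24 h shared 3 cell barcodes, control and 3 d shared 8, and 24 h and 3 d shared 4. The UMIs of a class were summed per library and scaled to a total of 1000000, which gives the UMIs of a gene as CPM. With 1 library per condition no difference had a replicate check and no test was made; every interval is a 95% interval that covers counting error only (Poisson for a level, exact conditional binomial for a ratio). A gene was called higher or lower only when its CPM differed at least 2-fold from control and both libraries together held at least 30 of its UMIs. Both times share 1 control library.

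Cells fell into 14 clusters, computed without the complement genes. Names were given from marker genes and mean a likeness (microglia-like, astrocyte-like and so on). Microglia (1006, 265 and 1231 cells in control, 24 h and 3 d) were clusters 0 and 8, and cluster 8 was led by the cytokine genes Cxcl10, Ccl12 and Tnf. Astrocytes (894, 238, 1429) were clusters 2, 4 and 10. Oligodendrocytes (232, 72, 249), endothelial cells (313, 236, 625), pericytes (160, 182, 327) and neuron-like cells (796, 111, 376) were 1 cluster each. The neuron-like cluster was led by Adarb2, Gm16351 and Lrrc7, and its Slc17a7 was at 0 in control and at 24 h. It held 2454, 437 and 1526 UMIs of Dlx1, a gene of the neural progenitor list. Whether its cells were mature neurons was not tested. Neural progenitors (169, 38, 174) and fibroblasts (9, 2, 13) fell under the 50 cells per library required for a comparison. Cluster 7, of low depth, held 7.39%, 3.02% and 3.37% of kept cells and stayed unnamed, as did cluster 12 (1.77%, 1.39%, 1.30%). Cluster 11 (1.77%, 2.20%, 2.80%), led by S100a8, F13a1 and Pf4, stayed unnamed because its leading genes belonged to other cell types while all 10 microglial markers were also found in it. All 8 markers of border-associated macrophages also passed in it, and without regression a cluster of 98, 43 and 138 cells took that name.

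The libraries differed in the levels at which a class held markers listed for other cell types. Whether this RNA came from other cells or from the class itself was not tested. Summed erythroid markers (5 genes, most abundant Hbb-bs) stood at 33914, 27.3 and 20898 CPM in endothelial cells of control, 24 h and 3 d (at 24 h Hbb-bt was at 0), and at 1191, 19.0 and 103 CPM in microglia. Neuron-like cells held erythroid markers at 2524, 21.8 and 64.9 CPM. They held endothelial markers (Kdr at 0 after TIA and Cdh5 at 24 h) at 102, 9.93 and 17.7 CPM. Summed microglial markers (10 genes, which did not all move alike) stood at 744, 164 and 568 CPM in neuron-like cells, where Fcrls was at 0 at 24 h. In endothelial cells they stood at 942, 367 and 1192 CPM and in pericytes at 596, 302 and 1230 CPM. Pericytes at 3 d also held more of some other lists: erythroid markers at 160, 52.2 and 7960 CPM and astrocyte markers (9 genes, most abundant Slc1a2, with Aqp4 and Gjb6 at 0 at 24 h) at 920, 169 and 1884 CPM. Some lists were lower there at 3 d than in control. Oligodendrocyte markers (Mog, Mobp and Ermn at 0 at 24 h) stood at 182, 31.5 and 127 CPM. Neuronal markers (Slc17a7 at 0 throughout, Syt1 and Stmn2 at 24 h) stood at 134, 9.85 and 19.5 CPM. Smooth muscle markers (Cnn1 at 0 in control and at 24 h) stood at 2037, 1853 and 1269 CPM, and Myl9 made up 1007 of their 1515 UMIs in control. Oligodendrocytes held erythroid markers at 6566, 14.1 and 4849 CPM, endothelial markers (8 genes, most abundant Cldn5 in control and at 24 h and Flt1 at 3 d, with Slco1a4 and Itm2a at 0 at 24 h) at 84.8, 9.99 and 146 CPM and pericyte markers (7 genes, most abundant Pdgfrb, Atp13a5 and Rgs5, with Abcc9 at 0 in control and at 24 h and Rgs5, Pdgfrb and Ndufa4l2 at 0 at 24 h) at 3.95, 4.99 and 76.3 CPM. They held the microglial markers at 457, 444 and 655 CPM and the neuronal markers (9 genes, most abundant Tubb3, with Rbfox3 and Slc17a7 at 0 in control, these with Snap25 and Dcx at 24 h and Rbfox3 at 3 d) at 98.7, 264 and 131 CPM. Tubb3 alone made up 312 of the 317 neuronal marker UMIs at 24 h. Astrocytes held erythroid markers (most abundant Hba-a1 at 24 h) at 812, 23.9 and 185 CPM and choroid plexus markers (5 genes, most abundant Ttr in control and at 3 d and Clic6 at 24 h, with Kl and Folr1 at 0 after TIA and Prlr at 24 h) at 165, 5.28 and 5.30 CPM. Low levels of a gene outside its main class therefore have to be read beside these values, and the part of RNA from other cells in those levels was not tested.

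Complement is a cascade of plasma and tissue proteins that tag cells and debris. C1q starts the classical pathway, C4 and C3 are cleaved and deposited on the target, and the small fragments C3a and C5a signal through receptors on myeloid cells. C1 inhibitor (Serping1) restrains the starting proteases and CD59 blocks the membrane pore; in brain, microglia are the known source of C1q, and the system is known for tagging synapses.

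Levels were split by class, and every ranking here is among the 6 compared classes. Of these, C1qa, C1qb, C1qc, C3ar1 and C5ar1 were highest in microglia, C4b in astrocytes and oligodendrocytes, Serping1 in pericytes and Cd59a in endothelial cells, while C3 was near 0 in all 6. At 24 h, C4b in astrocytes, C5ar1 in microglia, Serping1 in pericytes and Cd59a in endothelial cells rose past 2-fold. At 3 d only C4b was past 2-fold in its leading class. The C1q genes and C3ar1 were not past 2-fold in microglia at either time.

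**Figure D1:**
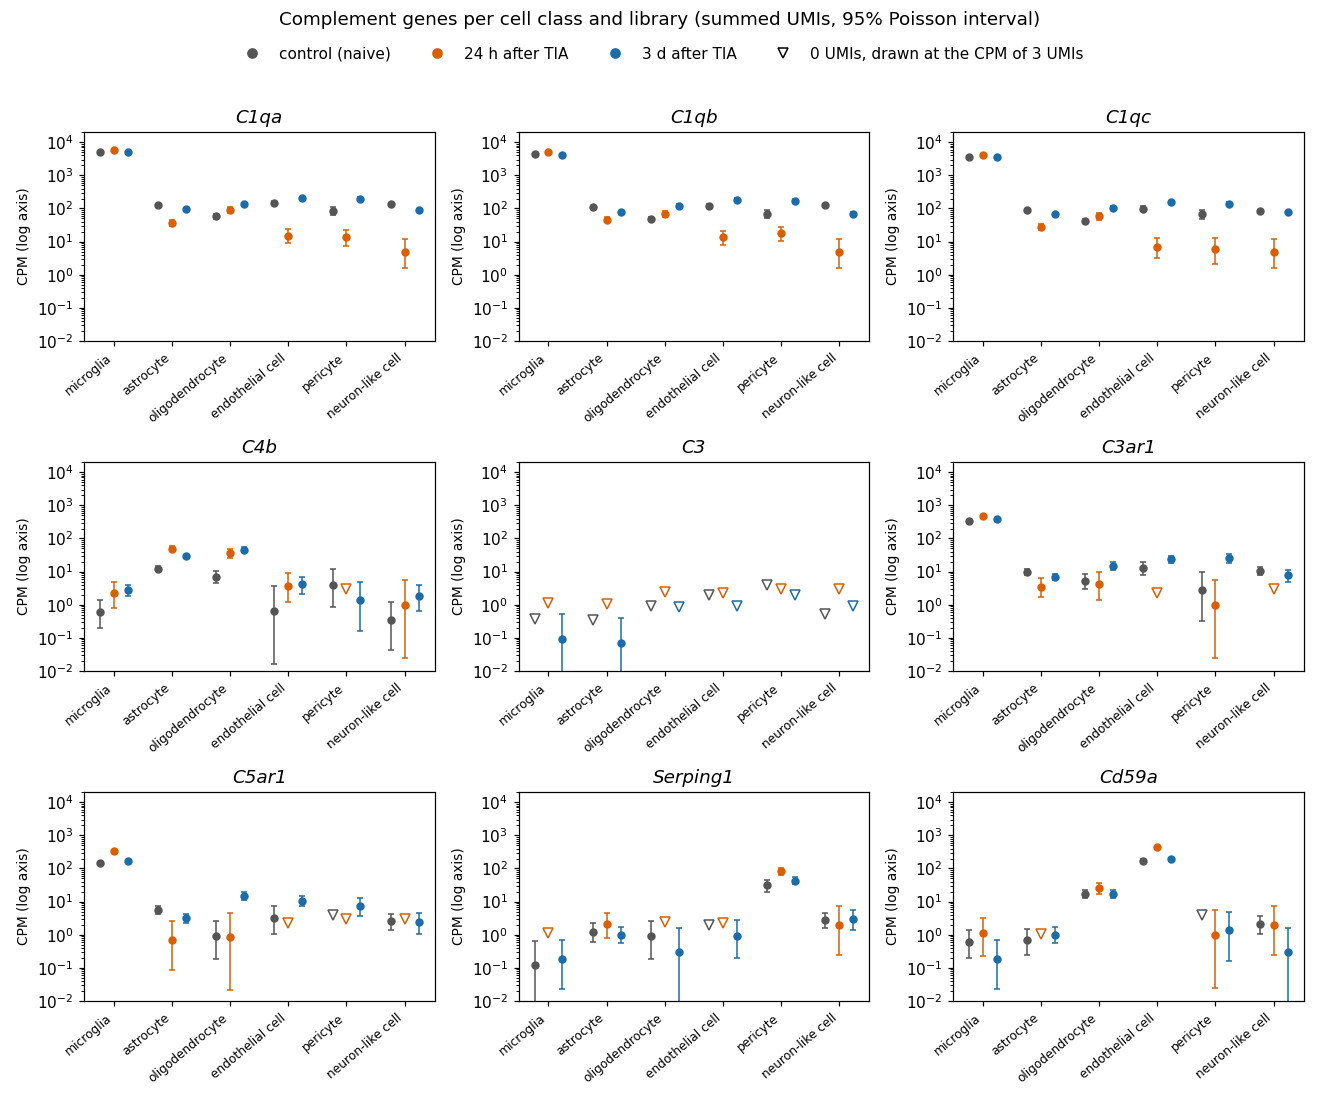
Level of each complement gene (CPM, log axis) in the 6 compared classes of the control, 24 h and 3 d libraries, with 95% Poisson intervals; open triangles mark 0 UMIs, drawn at the CPM of 3 UMIs. C1q and the receptors stand highest in microglia, Cd59a in endothelial cells and Serping1 in pericytes.

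C1qa, which encodes the A chain of C1q, was captured in microglia as 43808 UMIs in control, 16035 at 24 h and 52597 at 3 d, or 5215, 5860 and 4984 CPM. C1qb, the B chain, stood at 4467, 5157 and 4164 CPM, and C1qc, the C chain, at 3638, 4229 and 3591 CPM. For each chain the 24 h library was the highest and the 3 d library the lowest, by small margins. The log2 ratio at 24 h was 0.17 (0.14 to 0.19) for C1qa, 0.21 (0.18 to 0.24) for C1qb and 0.22 (0.19 to 0.25) for C1qc. At 3 d it was -0.07 (-0.08 to -0.05), -0.10 (-0.12 to -0.08) and -0.02, with an interval for C1qc that reached from -0.04 to 0.0027. The narrow intervals reflect the UMI numbers and say nothing of variation between mice. C1qa UMIs were found in 99.7%, 100% and 99.9% of microglia. Microglia held 77.7%, 80.5% and 66.9% of all C1qa UMIs of the kept cells, and the unnamed cluster 11 held 14.9%, 12.7% and 27.4%.

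In the 5 other compared classes C1q was lower by a wide margin, while the unnamed cluster 11 held summed C1q at 11067, 12331 and 9794 CPM against 13320, 15246 and 12738 CPM in microglia. Over the 3 libraries the mean CPM of C1qa in microglia was 43.4 times that in endothelial cells, the compared class with the next highest mean. Astrocytes held C1qa at 131, 36.9 and 93.9 CPM, endothelial cells at 145, 15.1 and 210 CPM, and neuron-like cells at 135, 4.97 and 88.4 CPM. Pericytes held it at 84.7, 13.8 and 199.98 CPM and oligodendrocytes at 57.4, 90.7 and 134 CPM. The 24 h value was the lowest of the 3 in each of these classes except oligodendrocytes. C1qa, C1qb and C1qc were past 2-fold lower at 24 h in astrocytes, endothelial cells, pericytes and neuron-like cells, and past 2-fold higher at 3 d in oligodendrocytes and pericytes. For C1qa the log2 ratio at 24 h was -1.82 (-2.12 to -1.53) in astrocytes, -3.26 (-4.00 to -2.60) in endothelial cells, -2.62 (-3.57 to -1.77) in pericytes and -4.76 (-6.39 to -3.54) in neuron-like cells. At 3 d it was 1.23 (0.98 to 1.48) in oligodendrocytes and 1.24 (0.84 to 1.66) in pericytes.

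A few cells held much of this outlying C1q. In oligodendrocytes of the 24 h library 5 cells held 96.3% of the 109 C1qa UMIs, and with the 5 highest cells left out of each library its log2 ratio turned from 0.66 to -2.25; those of C1qb and C1qc were then -2.78 and -2.18, and all 3 were called lower. In pericytes 5 cells held 67.1% of the C1qa UMIs at 3 d, and without the 5 highest cells C1qc at 3 d had a log2 ratio of 0.60 and C1qb at 24 h of -0.93, both within 2-fold, while C1qc at 24 h fell under 30 UMIs with a log2 ratio of -4.74 (main value -3.48). Leaving out these cells also took C1qa past 2-fold at 3 d in endothelial cells (1.52) and in neuron-like cells (-1.39), and C1qb and C1qc with it. In astrocytes 5 cells held 78.4% of the summed C1q UMIs at 24 h, and without the 5 highest cells the C1qa log2 ratio was -3.39 (main value -1.82). Cluster 4 held 2661 of the 2966 astrocyte C1q UMIs in control, or 689 CPM against 56.7 CPM in cluster 2. Its microglial markers stood at 1584 CPM there, against 260 CPM in cluster 2. The share of cells with a C1qa UMI was 22.0%, 12.6% and 24.7% in astrocytes (median depths 9334, 11498 and 9307 UMIs) against at least 99.7% in microglia (7844, 9381 and 7773 UMIs). Thinned to 2000 UMIs per cell, these shares came to 7.93%, 3.26% and 7.86% in astrocytes and at least 99.6% in microglia, over the 994, 262 and 1224 microglia and the 885, 225 and 1413 astrocytes that were deep enough.

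C1q in these classes ran beside the microglial markers, in part. In astrocytes the summed C1q genes stood at 333, 111 and 240 CPM and the 10 microglial markers at 837, 333 and 594 CPM. In oligodendrocytes they stood at 148, 220 and 361 CPM beside 457, 444 and 655 CPM, where 5 cells held 66.7%, 93.9% and 60.9% of the C1q UMIs. In endothelial cells summed C1q stood at 364, 35.6 and 556 CPM and in pericytes at 218, 37.4 and 510 CPM, beside the marker sums given above. The part of microglial RNA in the C1q of the other classes was not tested.

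**Figure D2:**
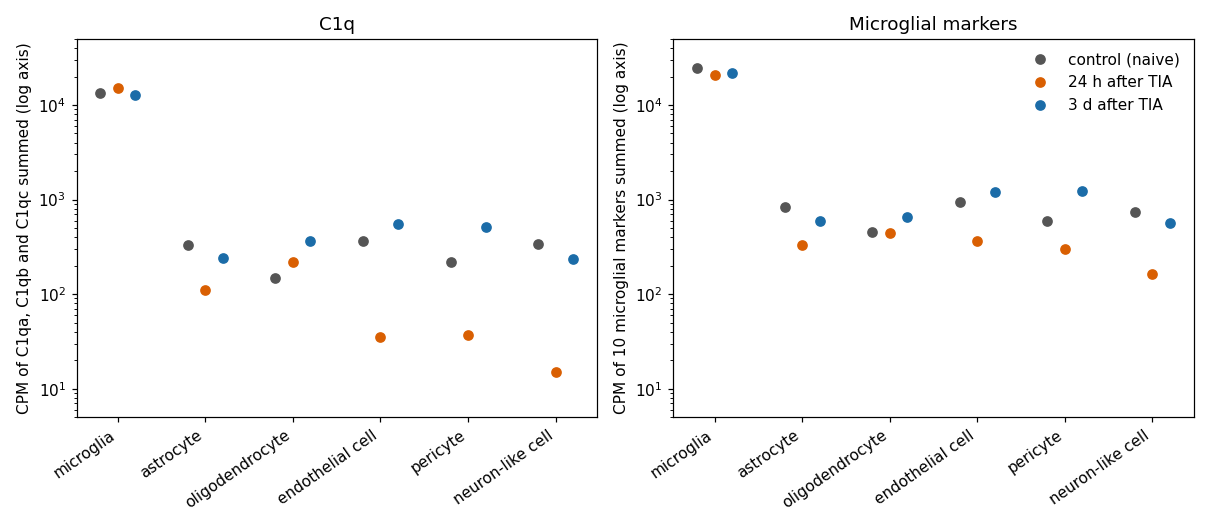
Summed CPM of C1qa, C1qb and C1qc (left, log axis) and of the 10 microglial markers (right, log axis) per class in the control, 24 h and 3 d libraries; each point is 1 library. In the 5 other classes both sums are far lower, and C1q in neuron-like cells at 24 h stands at 14.9 CPM against 341 CPM in control.

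The C1q genes lie next to each other on the reverse strand of chromosome 4 (GRCm38, GENCODE vM21, protein coding), within 18.7 kb. C1qb (ENSMUSG00000036905) spans chr4:136880129-136886187, C1qc (ENSMUSG00000036896) chr4:136889804-136893065 and C1qa (ENSMUSG00000036887) chr4:136895917-136898803. Over the 18 points given by 6 classes and 3 libraries, log2(CPM + 1) of C1qa was most like that of C1qb (Pearson r 0.998), Fcgr3 (0.997) and Ctss (0.996). C1qb was most like C1qa, Trem2 (0.9955) and Ctss (0.995), and C1qc was most like Ctss (0.998), Ly86 (0.997) and C1qa (0.996). These points share libraries and are dominated by the contrast between microglia and the rest, so the coefficients are descriptions.

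Promoter sequence, from RefSeq (GRCm38.p6), was found for 6 of the 9 genes: C1qb, C1qc, C3, C3ar1, C5ar1 and Cd59a. Each window of 300 bases was searched on both strands for the purine-rich motif GAGGAA, a core bound by ETS factors. On the opposite strand the motif reads TTCCTC. It was present in C1qb, C1qc and Cd59a and not in the windows of C3, C3ar1 and C5ar1. It was held by 28.3% of all 32851 promoters of that length, and 3 of 6 is given as a description. The windows of C1qb (chr4:136886151-136886450, reverse strand) and C1qc (chr4:136892865-136893164, reverse strand) are shown because these neighbours were both highest in microglia, and that of C5ar1 (chr7:16259289-16259588, reverse strand) because this gene rose past 2-fold in microglia at 24 h. The windows are set by the RefSeq start, and by the GENCODE coordinates most of those of C1qc and C5ar1 lies inside the gene. Capitals mark the motif.
C1qb: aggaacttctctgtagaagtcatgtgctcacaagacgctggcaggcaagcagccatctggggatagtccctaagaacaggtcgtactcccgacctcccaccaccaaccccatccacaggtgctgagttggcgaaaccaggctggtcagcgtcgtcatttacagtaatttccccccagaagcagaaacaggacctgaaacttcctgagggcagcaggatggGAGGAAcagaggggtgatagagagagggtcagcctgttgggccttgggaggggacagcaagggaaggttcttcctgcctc
C1qc: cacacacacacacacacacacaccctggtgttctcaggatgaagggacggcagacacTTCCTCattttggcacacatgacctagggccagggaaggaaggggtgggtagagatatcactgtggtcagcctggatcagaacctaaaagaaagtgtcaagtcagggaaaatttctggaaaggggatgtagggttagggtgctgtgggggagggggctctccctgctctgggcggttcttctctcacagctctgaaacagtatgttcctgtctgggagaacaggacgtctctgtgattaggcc
C5ar1: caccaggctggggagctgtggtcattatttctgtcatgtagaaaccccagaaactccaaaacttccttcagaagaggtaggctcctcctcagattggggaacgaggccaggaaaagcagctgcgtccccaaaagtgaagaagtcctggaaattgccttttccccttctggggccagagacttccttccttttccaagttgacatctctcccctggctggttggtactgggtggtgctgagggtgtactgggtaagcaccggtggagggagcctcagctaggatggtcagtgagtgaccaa

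C4b encodes complement C4, which is cleaved after C1q binds and marks the target. In astrocytes it had 110, 141 and 409 UMIs in control, 24 h and 3 d, or 12.4 (10.2 to 14.9), 49.6 (41.8 to 58.5) and 28.9 (26.2 to 31.8) CPM. All 3 intervals were apart, with 24 h the highest. The log2 ratio was 2.00 (1.63 to 2.38) at 24 h and 1.23 (0.92 to 1.54) at 3 d, a 4.01-fold and a 2.34-fold rise. By astrocyte cluster, the log2 ratio at 24 h was 2.84 (2.26 to 3.46) in cluster 2 and 1.29 (0.64 to 1.92) in cluster 4, both past 2-fold, and 0.99 (-0.56 to 2.40) in cluster 10, from 14 and 7 UMIs.

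Oligodendrocytes held C4b at 6.99 (4.43 to 10.5), 36.6 (26.6 to 49.2) and 46.3 (39.4 to 54.0) CPM, from 23, 44 and 160 UMIs. Here the 3 d library was the highest, and the log2 ratio was 2.39 (1.63 to 3.18) at 24 h and 2.73 (2.09 to 3.43) at 3 d. Between 24 h and 3 d the log2 ratio was 0.34 (-0.15 to 0.85) in oligodendrocytes and -0.78 (-1.06 to -0.49) in astrocytes; the difference between the classes was not tested. Astrocytes and oligodendrocytes could not be ordered by their mean level (30.3 and 30.0 CPM). Their intervals overlapped in control and at 24 h, and at 3 d oligodendrocytes were above astrocytes. Summed astrocyte markers (9 genes, most abundant Slc1a2 in control and Slc1a3 after TIA, with Aqp4 at 0 at 24 h) stood at 466, 209 and 714 CPM in oligodendrocytes against 19387, 19791 and 20126 CPM in astrocytes, and their part in the oligodendrocyte value was not tested. Of the oligodendrocyte UMIs at 24 h, 5 cells held 59.1%, and without the 5 highest cells the log2 ratios were 2.00 and 2.79.

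A C4b UMI was found in 9.73%, 28.6% and 19.5% of astrocytes and 7.76%, 25.0% and 22.5% of oligodendrocytes (median depths 13417, 16150 and 12899 UMIs), against 0.398%, 2.26% and 2.11% of microglia. Thinned to 2000 UMIs the astrocyte shares came to 2.48%, 8.13% and 5.43%, those of oligodendrocytes to 1.34%, 6.37% and 6.74%, and those of microglia to 0.112%, 0.344% and 0.472%. Both classes thus stood above microglia in every library. C4b in microglia went from 5 to 29 UMIs between control and 3 d (0.595 and 2.75 CPM, log2 ratio 2.21, 0.82 to 3.93), which is past 2-fold. Its 3 d share, thinned, was below the 0.581% of endothelial cells (1.92% unthinned, median depth 4333 UMIs), while that of microglial cluster 8 was 1.08%. This cluster held 0, 2 and 17 of the microglial C4b UMIs, or 5.83 CPM at 3 d against 1.57 CPM in cluster 0 and 4.08 CPM in endothelial cells. Without the 5 highest cells the log2 ratio in microglia at 3 d was at least 2.48, from under 30 UMIs. The source of these UMIs was not tested. C4b (ENSMUSG00000073418, chr17:34728380-34743882, reverse strand) has a near-identical copy in C4a (ENSMUSG00000015451, chr17:34809092-34823464), and 3' counts can be split between them, so its level is uncertain. Across the 18 points C4b was most like Serpina3n (r 0.953), Gpt (0.9115) and Tecpr2 (0.9075).

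C3, the central component on which all activation routes meet, was hardly found. It had 0 UMIs in every compared class of the control and 24 h libraries and 1 UMI each in microglia and astrocytes at 3 d. The 0 in control microglia allows up to 0.357 CPM and that in control astrocytes up to 0.337 CPM. At 3 d the intervals reached up to 0.528 CPM in microglia and 0.394 CPM in astrocytes. These counts bound the level of C3, and a change under those limits was not detectable at this depth. Of the 87 C3 UMIs in all kept cells, 82 came from 11 cells of cluster 11 at 3 d, where the 3 libraries held 0, 2 and 82 UMIs, a log2 ratio at 3 d of at least 3.19 against the 3 UMIs that a count of 0 allows.

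These 11 cells were deep, with a median of 83182 UMIs (11406 to 157408) against 33467 in the other 123 cells of that cluster at 3 d. Of the 11, 8 held at least 100 UMIs of S100a8 and S100a9, genes of neutrophils, 9 held at least 100 UMIs of microglial markers, and 7 held both kinds and 65 of the C3 UMIs. The doublet caller marked 0 of them. Which cell type these C3 UMIs came from was not tested. C3 (ENSMUSG00000024164) lies at chr17:57203970-57228136, reverse strand.

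C3ar1 encodes the receptor of C3a. In microglia it had 2839, 1329 and 4172 UMIs, or 338 (326 to 351), 486 (460 to 513) and 395 (383 to 407) CPM. The 24 h library was the highest and control the lowest, with intervals apart. The log2 ratio was 0.52 (0.43 to 0.62) at 24 h and 0.23 (0.16 to 0.30) at 3 d, within 2-fold. A UMI was found in 81.6%, 91.7% and 86.2% of microglia against 4.36%, 1.26% and 3.36% of astrocytes. Thinned to 2000 UMIs, 44.9%, 55.3% and 49.4% of microglia held it, against 1.16%, 0.254% and 0.850% of astrocytes.

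In the other compared classes C3ar1 reached at most 25.5 CPM, in pericytes at 3 d, where 5 cells held 86.8% of the 38 UMIs. It was past 2-fold lower at 24 h in astrocytes (88 and 10 UMIs) and neuron-like cells (61 and 0 UMIs, log2 ratio at most -1.80). It was past 2-fold higher at 3 d in oligodendrocytes (17 and 52 UMIs) and pericytes (2 and 38 UMIs). Of these 4 calls only that in astrocytes held without the 5 highest cells of each library. That in oligodendrocytes was lost by falling under 30 UMIs, with a log2 ratio of at least 2.52 (main value 1.54). The ratio was then at least -0.26 in pericytes and at most -0.71 in neuron-like cells, while C3ar1 at 3 d came past 2-fold in endothelial cells (1.43) and neuron-like cells (-1.51). C3ar1 (ENSMUSG00000040552) lies at chr6:122847138-122856161, reverse strand, and was most like Nckap1l (r 0.9955), Ncf1 (0.992) and Cd84 (0.991).

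C5ar1, the receptor of C5a, had 1263, 917 and 1774 UMIs in microglia, or 150 (142 to 159), 335 (314 to 358) and 168 (160 to 176) CPM. The 24 h library stood far above both others. C5ar1 rose 2.23-fold at 24 h (log2 ratio 1.16, 1.03 to 1.28), and at 3 d its log2 ratio was 0.16 (0.06 to 0.27). From 24 h to 3 d the log2 ratio was -0.995 (-1.11 to -0.88). A UMI was found in 47.7%, 74.7% and 49.3% of microglia against 1.68%, 0.840% and 1.61% of astrocytes. Thinned to 2000 UMIs, 20.9%, 37.2% and 21.5% of microglia held it, against 0.486%, 0% and 0.439% of astrocytes.

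The microglial clusters were also read apart. Cluster 0 (887, 200 and 925 cells) held C5ar1 at 122, 211 and 120 CPM, a log2 ratio at 24 h of 0.78 (0.61 to 0.95). Cluster 8 (119, 65 and 306 cells) held it at 346, 609 and 293 CPM, a log2 ratio of 0.82 (0.62 to 1.01). Neither ratio was past 2-fold, and how far the makeup of the class by these clusters enters its ratio was not tested. At 3 d the log2 ratios were -0.03 (-0.16 to 0.11) and -0.24 (-0.42 to -0.06). The mean over cells in place of the sum gave a log2 ratio of 1.01 for all microglia at 24 h.

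In other classes C5ar1 was past 2-fold lower in astrocytes at 24 h (51 and 2 UMIs) and higher at 3 d in oligodendrocytes (3 and 51 UMIs, 94.1% of the latter in 5 cells) and endothelial cells (5 and 33 UMIs, 90.9% in 5 cells). Without the 5 highest cells of each library none of the 3 was called. C5ar1 (ENSMUSG00000049130) lies at chr7:16246743-16259540, reverse strand, and was most like Tagap (r 0.985), Gm2245 (0.982) and Bcl2a1b (0.980).

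**Figure D3:**
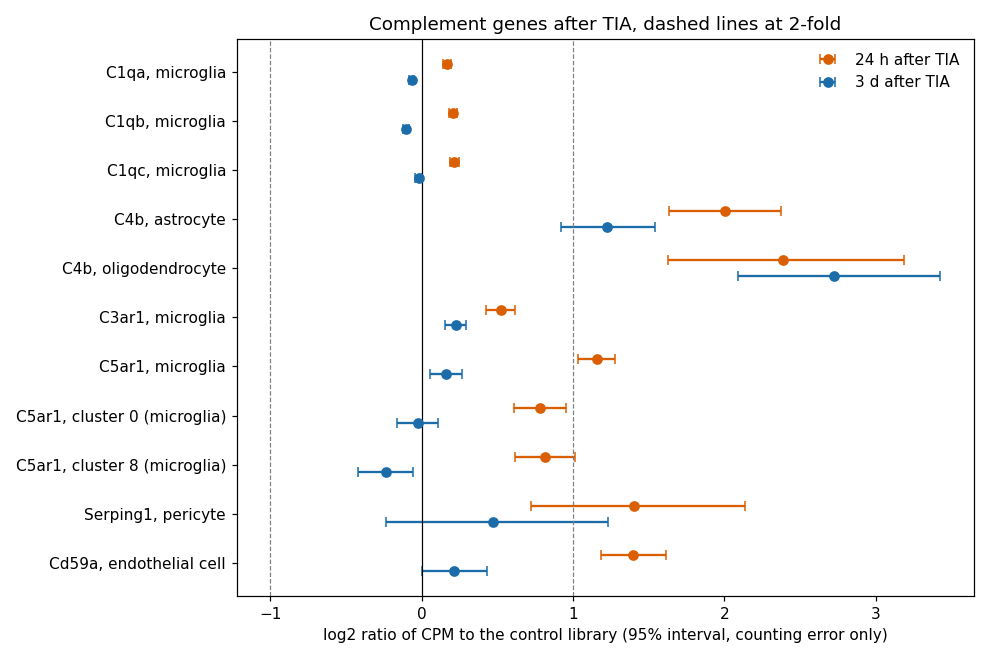
Log2 ratio of CPM to the control library for each gene in its leading class, with C4b also in oligodendrocytes and C5ar1 also in each microglial cluster; points are single libraries, bars are 95% intervals for counting error only and dashed lines mark 2-fold. C5ar1 stands at 1.16 in all microglia at 24 h and at 0.78 and 0.82 in clusters 0 and 8.

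Serping1 encodes C1 inhibitor, which blocks the proteases of the C1 complex. In pericytes it had 23, 83 and 64 UMIs, or 30.9 (19.6 to 46.4), 81.8 (65.1 to 101) and 42.9 (33.1 to 54.8) CPM. The 24 h interval was apart from both others, and those of control and 3 d overlapped. Serping1 rose 2.64-fold at 24 h (log2 ratio 1.40, 0.72 to 2.14), and had a log2 ratio of 0.47 (-0.23 to 1.23) at 3 d. A UMI was found in 11.25%, 24.2% and 10.1% of pericytes (median depths 4320, 5275 and 3906 UMIs) against 0.0994%, 0% and 0.162% of microglia, and thinned to 2000 UMIs in 5.45%, 11.8% and 6.61% of pericytes against at most 0.0329% of microglia; 156, 175 and 305 pericytes were deep enough.

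Fibroblasts, too few to compare, had the higher level: 315, 912 and 348 CPM from 22, 13 and 35 UMIs in 9, 2 and 13 cells. Summed fibroblast markers (6 genes, most abundant Col1a2 in control and at 3 d and Slc6a13 at 24 h, with Col1a1 and Lum at 0 in control and at 24 h) stood at 371, 393 and 350 CPM in pericytes. All 3 values lay within 2-fold, and their part in the pericyte value was not tested. The other compared classes held Serping1 at 2.95 CPM or less. Serping1 (ENSMUSG00000023224) lies at chr2:84765387-84775444, reverse strand, and was most like Lmod1 (r 0.972), Itga8 (0.972) and Rflna (0.971).

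Cd59a encodes CD59, which stops the pore from forming on the cell that carries it. In endothelial cells it had 262, 588 and 625 UMIs, or 169 (149 to 191), 445 (410 to 483) and 196 (181 to 212) CPM. The 24 h library stood apart from both others. Cd59a rose 2.64-fold at 24 h (log2 ratio 1.40, 1.19 to 1.61), and at 3 d its log2 ratio was 0.22 (0.01 to 0.43). From 24 h to 3 d the log2 ratio was -1.18 (-1.35 to -1.02). Erythroid markers in the same cells were lowest at 24 h, as given above; their part in the result was not tested.

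A Cd59a UMI was found in 47.0%, 74.6% and 51.2% of endothelial cells (4627, 5645 and 4333 UMIs) against 0.497%, 0.755% and 0.162% of microglia. Thinned to 2000 UMIs it was found in 27.1%, 51.9% and 31.9% of endothelial cells and at most 0.191% of microglia, over 285, 224 and 582 endothelial cells. Oligodendrocytes came next, at 16.7 (12.6 to 21.8), 25.0 (16.9 to 35.6) and 17.1 (12.98 to 22.0) CPM, with overlapping intervals, and the other compared classes held at most 2.04 CPM. Cd59a (ENSMUSG00000032679) lies at chr2:104095801-104115354, forward strand, beside its near copy Cd59b (ENSMUSG00000068686, chr2:104069849-104091187), and counts that can be split between the copies make its level uncertain. It was most like Cavin2 (r 0.983), Thsd1 (0.961) and 9330175M20Rik (0.961).

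Over all genes the share past 2-fold differed by class, and the complement genes are read beside it. In microglia at 24 h, 2.44% of 11601 genes were higher and 3.64% lower; of 5 members with enough UMIs 1 was higher (C5ar1), and of 17 complement genes in all 2 were higher and 1 lower. At 3 d there, 1.63% of 12619 genes were higher and 1.13% lower, and of 6 members 1 was higher (C4b), the 1 called of 20 complement genes. The median log2 ratio of the complement genes in microglia was 0.19 and 0.08 against 0.05 and 0.06 for all genes. In astrocytes at 24 h, 2.95% of 12665 genes were higher and 6.41% lower, against 1 higher and 5 lower of 6 members and 2 higher and 10 lower of 23 complement genes. At 3 d there, 1.70% of 13984 genes were higher and 0.958% lower, against 1 higher of 6 members and 1 higher of 24. The astrocyte medians were -0.84 and -0.15 against 0.01 and 0.04.

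In oligodendrocytes 3.67% of 9297 genes were higher and 6.81% lower at 24 h, against 1 higher of 5 members and 1 higher and 3 lower of 15 complement genes. At 3 d 4.30% of 10448 genes were higher there and 1.21% lower, against 6 higher of 7 members and 8 higher and 1 lower of 19. Medians were 0.33 and 0.56 against -0.03 and 0.05. In endothelial cells 2.67% of 9010 genes were higher and 4.28% lower at 24 h, against 1 higher and 3 lower of 4 members and 2 higher and 5 lower of 13 (1 and 5 under median ratio scaling). At 3 d 5.07% of 10632 genes were higher there and 0.752% lower, against 1 higher of 6 members and 1 higher of 17. Medians were -0.24 and 0.22 against 0.03 and 0.09.

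In pericytes 2.62% of 7776 genes were higher and 2.98% lower at 24 h, against 1 higher and 3 lower of 4 members and 2 higher and 4 lower of 12 complement genes. At 3 d 5.74% of 8925 genes were higher there and 1.10% lower, against 4 higher of 5 members and 6 higher of 15. In neuron-like cells 1.00% of 11495 genes were higher and 8.96% lower at 24 h, against 4 lower of 4 members and 9 lower of 18. At 3 d 0.688% of 12218 genes were higher there and 1.69% lower, against 0 called of 4 members and 3 lower of 21. Pericyte medians were -0.09 and 0.53 against -0.0011 and 0.07, and those of neuron-like cells -1.23 and -0.23 against -0.04 and 0.03. Outside the leading classes most of the members called were C1q genes and C3ar1.

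Of 47 further complement genes, 21 pairs of a gene and a class were past 2-fold at 24 h and 8 at 3 d. Of all genes with enough UMIs, 1.00% to 3.67% per class were higher and 2.98% to 8.96% lower at 24 h. At 3 d these shares were 0.688% to 5.74% and 0.752% to 1.69%. The numbers of complement genes with enough UMIs per class are given above together with the members. Itgam and Itgb2 encode the chains of complement receptor 3. In microglia Itgam stood at 585, 378 and 529 CPM, a log2 ratio of -0.63 (-0.73 to -0.53) at 24 h, and Itgb2 at 168, 180 and 168 CPM. Outside microglia Itgam was lower at 24 h in astrocytes (log2 ratio -2.01), endothelial cells (-4.68, from 1 UMI) and neuron-like cells (-3.80, from 1 UMI), and higher at 3 d in oligodendrocytes (1.44) and pericytes (1.41). Itgb2 was lower in astrocytes at 24 h (-1.39) and in neuron-like cells at 3 d (-1.91), and higher in oligodendrocytes at 3 d (1.93). These directions are those of C1q in the same classes, apart from neuron-like cells at 3 d, where the C1q genes were not past 2-fold. Itgax, the partner chain in complement receptor 4, was higher in microglia at 24 h from 21 UMIs in each of both libraries (2.50 and 7.67 CPM, log2 ratio 1.62, 0.67 to 2.56).

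Clu and Vtn encode clusterin and vitronectin, which bind the late complex. Clu was highest in astrocytes, at 2346, 2891 and 2334 CPM, and was lower at 24 h in microglia (19.4 and 6.21 CPM, log2 ratio -1.64) and pericytes (137 and 15.8 CPM, -3.12). Vtn was highest in pericytes, at 12568, 10799 and 11352 CPM, and was lower at 24 h in oligodendrocytes (21.0 and 3.33 CPM, -2.65) and neuron-like cells (17.2 and 1.99 CPM, -3.12), and at 3 d in the latter (8.25 CPM, -1.06). Within their leading classes neither gene was past 2-fold.

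Csmd1, Csmd2 and Csmd3 encode large membrane proteins with complement control repeats. Csmd3 was highest in microglia, at 2344, 1589 and 2154 CPM. It was lower at 24 h in astrocytes (82.0 and 28.9 CPM, log2 ratio -1.51) and endothelial cells (62.6 and 10.6 CPM, -2.56) and higher at 3 d in pericytes (8 and 210 UMIs, 3.71), where 5 cells held 77.1% of the UMIs. Csmd2 was lower at 24 h in oligodendrocytes (62.0 and 27.5 CPM, -1.17) and neuron-like cells (13.6 and 4.97 CPM, -1.46). Csmd1 was lower in oligodendrocytes at 24 h and 3 d (21.0, 4.99 and 8.38 CPM, -2.07 and -1.32), with 89.9% of the control UMIs in 5 cells.

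Of the remaining genes, Cr2, a receptor of C3 fragments, was lower in astrocytes at 24 h (101 and 8 UMIs, log2 ratio -2.01). C2, the protease that joins C4 in the C3 convertase, was higher there (18 and 13 UMIs, log2 ratio 1.18, 0.03 to 2.29). Cd59b was lower in neuron-like cells at 24 h and 3 d (30, 1 and 2 UMIs, log2 ratios -2.36 and -3.12). Without the 5 highest cells of each library some calls were lost, several with a ratio still past 2-fold but under 30 UMIs. Their log2 ratios then were 1.78 for Itgax, 0.67 for C2, at most 0.22 and -1.60 for Cd59b at 24 h and 3 d, -4.90 for Clu in pericytes, and at most 0.32 at 24 h and 0.59 at 3 d for Csmd1. Those of Itgb2 were at most -1.34 in astrocytes, at least 1.66 in oligodendrocytes and at most -0.79 in neuron-like cells. Those of Itgam were at most -2.10 in endothelial cells at 24 h and 3.94 and 1.69 in oligodendrocytes and pericytes at 3 d, and those of Vtn at most 1.08 in oligodendrocytes at 24 h and -0.22 in neuron-like cells at 3 d.

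Other pairs came past 2-fold only without those cells. Clu did so in endothelial cells (-2.96 at 24 h and 1.26 at 3 d), in neuron-like cells at 24 h (-3.44) and in pericytes at 3 d (1.29). In astrocytes these were Colec12 (-1.25), Cfp (-1.45) and Csmd2 (-1.30) at 24 h and C2 at 3 d (1.33), and in oligodendrocytes Csmd2 at 3 d (-1.01). In neuron-like cells they were Masp2 (-1.25), Cd46 (-1.15) and Cr1l (-1.05) at 24 h and Masp1 (-1.44), Masp2 (-1.05) and Itgam (-1.42) at 3 d.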

How the data were processed

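Single-cell RNA libraries (10x Genomics 3' v3.1) were analysed from the count matrices the authors deposited: raw UMI counts per gene and cell barcode, not normalized. The authors aligned to mm10 with GENCODE vM23; the matrix headers name Cell Ranger 7.1.0 and the submitters' processing notes 3.1.0. Coordinates here are from GENCODE vM21 (GRCm38), in which all 56 complement genes were found.

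Members and gene lists were chosen with earlier results of these data known. Kept cells were clustered in Seurat 5.3.0 (R 4.3.3) with 2000 variable features, less the 19 complement genes among them, regression of UMI number and mitochondrial share, 20 components and resolution 0.5. A cluster was named when at least 3 markers of a type (20 lists) were found in 10% of its cells at 2-fold, unless its leading 10 genes or its depth went against the name. UMIs were summed per class and library and scaled to 1000000. Scrublet (scanpy 1.11.5) called 3.04%, 0.490% and 2.93% of cells of the control, 24 h and 3 d libraries doublets; these were kept, and left out as an alternative. Named were all members in all 6 compared classes, every other complement gene past 2-fold with at least 30 UMIs apart from an item not reported here, and for each member with at least 100 UMIs the 3 genes most like it. Shares thinned to 2000 UMIs were computed from the hypergeometric distribution, leaving out shallower cells. Ratio and interval code was tested on simulated data. A count of 0 was read as allowing 3 UMIs. Alternatives were resolution 0.2 and 1, no regression, complement genes kept for clustering, another reading of the cell filter (only cells that crossed both limits left out), median ratio scaling, mean over cells, doublets left out, the 5 cells with most UMIs left out, 1.5-fold and at least 100 UMIs.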

Additional observations from a re-analysis of the deposited data

Results flagged for a closer look

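The ratio of Masp1, a protease of the lectin pathway, ran in opposite directions in 2 classes, and this difference was not tested. It had a log2 ratio at 3 d of 0.65 in astrocytes (209 and 523 UMIs) and -0.95 in neuron-like cells (57 and 17 UMIs).

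Other values came from clusters outside the compared classes. In the unnamed, low-depth cluster 7 the log2 ratio at 24 h was 1.96 for C1qa, 2.06 for C1qb and 2.24 for C1qc, and 1.01 for C1qc at 3 d; its 24 h value came from 37 cells. Of the summed C1q UMIs of this cluster 5 cells held 10.9%, 47.4% and 30.0% in control, 24 h and 3 d, and its microglial markers stood at 12935, 18284 and 13623 CPM and its astrocyte markers at 705, 2002 and 1257 CPM; their part was not tested. In cluster 11 C3 at 3 d was at least 3.19 (log2) above the limit of 0 UMIs in control, and C5ar1 at 24 h had a log2 ratio of 1.28 (0.98 to 1.58). In cluster 12 C4b at 3 d had a log2 ratio of 1.16 (0.19 to 2.17). In fibroblasts Serping1 at 24 h had a log2 ratio of 1.53 (0.42 to 2.59), from 13 UMIs in 2 cells. None of these was tested.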

How the results depend on the processing

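No paired analysis was possible because each condition had 1 library. Members past 2-fold in their leading class numbered 4 at 24 h and 1 at 3 d under every alternative run. This count leaves out C3, which had no leading class in the main result. In cluster 11, added to the microglia in 1 alternative below, C3 was at least 3.19 (log2) higher at 3 d. Of 198 single log2 ratios under 11 alternatives, 180 stayed within the interval of the reported value, 18 moved and 0 changed sign past a call. Without regression C1qa, C1qb and C1qc at 3 d were -0.13, -0.17 and -0.064. Under median ratio scaling, which shifted all genes by at most 0.0714 (log2), they were 0.10, 0.14 and 0.15 at 24 h and -0.12, -0.16 and -0.075 at 3 d, and the share of higher among called complement genes in endothelial cells at 24 h went from 28.6% to 16.7%. The mean over cells gave 0.20 for C1qa and 1.01 for C5ar1 at 24 h, and leaving out the 5 cells with most UMIs 1.03 for C5ar1. Pairs of a further complement gene and a class past 2-fold (21 at 24 h, 8 at 3 d) numbered 12 and 2 with at least 100 UMIs, where fewer genes were counted, and those past 1.5-fold 32 and 20. Among alternatives chosen after seeing the data, adding clusters 7 and 11 to the microglia gave 0.21, 0.28 and 0.28 for C1qa, C1qb and C1qc at 24 h, -0.10 and -0.13 for C1qa and C1qb at 3 d and 13 such pairs past 2-fold in place of 8 at 3 d, and made microglia the leading class of C3; leaving out the deepest 5% of cells gave 0.42 for C3ar1 at 24 h. The class leading in C4b turned to oligodendrocytes without doublets and without the deepest 5%. The cause of these moves was not tested. Depth limits C3, Serping1 and C4b.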

Other observations

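C4b in cluster 11 at 3 d went the other way from astrocytes and oligodendrocytes: it stood at 23.9, 28.8 and 7.07 CPM in control, 24 h and 3 d, from 45, 16 and 40 UMIs, a log2 ratio of -1.76 (-2.41 to -1.11) at 3 d. The cells of that cluster had median depths of 21692, 16959 and 34680 UMIs. C3ar1 and C5ar1 were also found there, C3ar1 at 303, 383 and 341 CPM and C5ar1 at 120.5, 293 and 146 CPM. Summed microglial markers stood at 20692, 15825 and 18896 CPM in that cluster, against 24677, 20734 and 21722 CPM in microglia. The receptors were thus also counted outside the clusters named microglia. Whether these receptor UMIs came from microglia or from other cells was not tested.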
